A study of Drosophila melanogaster with 6 samples.

Results

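The 5 genes described here encode the Pax6 transcription factors twin of eyeless (toy) and eyeless (ey), the SIX-type homeodomain factor sine oculis (so), its partner eyes absent (eya) and the nuclear factor dachshund (dac). They were chosen by symbol, as every probe set that the platform annotation gives to 1 of these genes and to no other gene. This yielded 5 probe sets, 1 per gene, of the 12443 probe sets with a single gene, which cover 10844 genes. The samples were 6 Affymetrix arrays of total RNA from the brains of adult Drosophila melanogaster females, all of the wild-type strain CantonS. Brains without mushroom bodies came from flies fed hydroxyurea at 25 mg/ml for 4 h as newly hatched larvae (ablated 4, 5 and 6), and control brains came from untreated flies (control 1, 2 and 3). All flies were raised at 25 °C, and the labels state neither the adult age nor how many brains went into an array.

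In the developing eye these genes form the retinal determination network. The Pax6 factor toy acts upstream of ey, ey activates so and eya, the proteins So and Eya work as a DNA-binding factor and its coactivator, and dac acts beneath them. The network has feedback among its members. In the mushroom bodies, the paired brain centres for olfactory learning, ey, toy and dac are expressed in Kenyon cells, the intrinsic neurons, and ey is needed for the structure to form. The genes so and eya are known mainly from the eye and the visual system.

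Hydroxyurea blocks DNA synthesis and kills dividing cells. Newly hatched larvae are fed because few neuroblasts other than those of the mushroom bodies divide then. A neuroblast of the antennal lobe is also known to be lost under this protocol, and Kenyon cells born in the embryo survive. The drug was given to all ablated and to no control flies, so mushroom body loss and the drug's other effects cannot be told apart. In whole-brain RNA, fewer cells of a type and less transcript per cell cannot be told apart either. No separate cultures are named in the labels, so the spread that the p-values rest on may be technical.

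Signals are given in arbitrary units after each array was scaled to the same trimmed mean, and differences are log2 of the ablated over the control brains. The deposited trimmed means were 40.4, 37.8 and 42.2 on ablated 4, 5 and 6 and 49.8, 43.7 and 41.7 on control 1, 2 and 3. The scaled median signals lay between 14.7 and 15.6 on the ablated arrays and between 14.4 and 15.0 on the control arrays. Probe sets whose mean signal reached 9.19, the 40th percentile of all values, were tested with limma, which left 8387. Of the 5 genes, toy, ey and dac reached that level, in both groups, and eya and so did not. Their means over all 6 arrays were 8.79 and 8.49, so they were left out of this test. Exact permutation tests and intervals without the filter are given for them below. The 3' to 5' signal ratio of the Gapdh control probe sets, a sign of RNA integrity, was 9.37, 10.5 and 7.12 on ablated 4, 5 and 6. It was 13.0, 7.18 and 12.7 on control 1, 2 and 3. For Actin the ratio was 12.5, 17.2 and 14.5 on the ablated and 19.4, 13.0 and 17.3 on the control arrays, in the same order. On every array the 3' signal of both thus far exceeded the 5' signal.

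The Pax6 genes had less signal in the brains without mushroom bodies, on every array. The ey probe set (143543_at) stood at 55.7% and the toy probe set (152583_at) at 75.2% of its control mean. Neither passed the test over all probe sets. For dac, eya and so the groups overlapped, and these 3 genes shared their lowest reading on the same array, ablated 4.

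The signal of ey was 113, 111 and 121 on ablated 4, 5 and 6, against 229, 188 and 203 on control 1, 2 and 3. The ablated arrays lay close together and far below the lowest control array. The means were 115 ± 5.47 (SD, n = 3) in ablated and 207 ± 20.9 (SD, n = 3) in control brains. The log2 difference was -0.83 (SE 0.13), with a 95% interval of -1.13 to -0.52, and limma's adjusted p was 0.759. Its unadjusted p, 0.000181, was the smallest among tested probe sets with a difference below 0, and by the size of the difference it stood at place 52.

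The signal of toy was 330, 274 and 354 on ablated 4, 5 and 6, against 410, 372 and 492 on control 1, 2 and 3. All ablated arrays lay below all control arrays, but ablated 6 and control 2 were separated by little. The means were 319 ± 41.4 (SD, n = 3) in ablated and 425 ± 61.1 (SD, n = 3) in control brains. The log2 difference was -0.41 (SE 0.15), with a 95% interval of -0.75 to -0.062, and limma's adjusted p was 0.838 (unadjusted 0.0257).

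**Figure D1:**
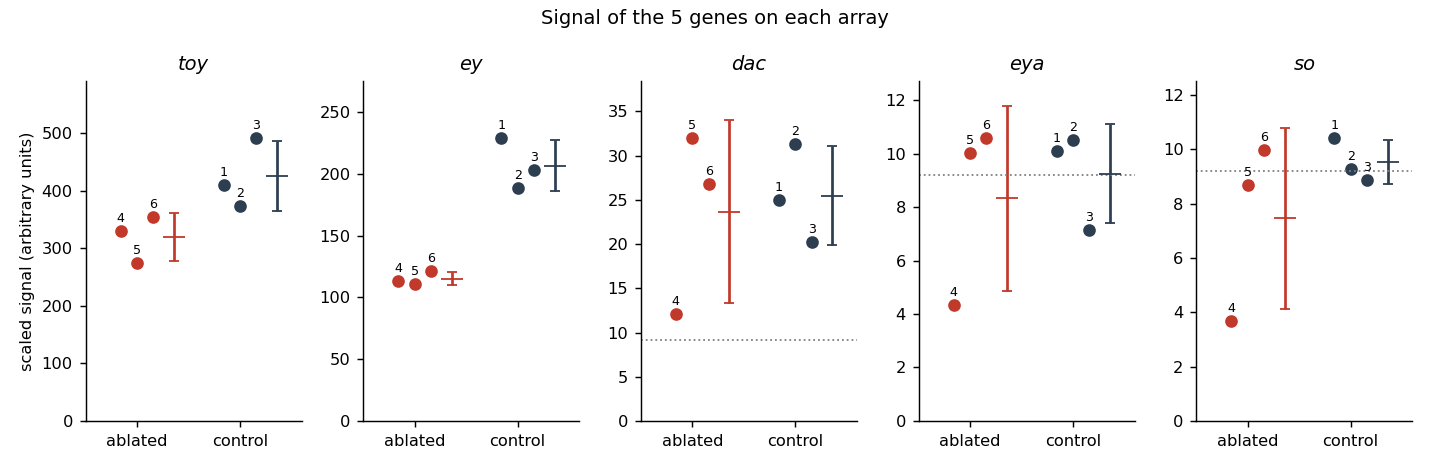
Scaled signal (arbitrary units, linear axes from 0) of toy, ey, dac, eya and so on each array, ablated brains in red on the left and control brains in dark blue on the right. Numbers are the array numbers, bars beside the points are mean and SD (n = 3), and the dotted line marks 9.19, the level for testing. For ey the ablated arrays lie between 111 and 121 and the control arrays between 188 and 229, and ablated 4 is lowest for dac, eya and so.

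No probe set passed the adjusted test of limma, with 0 lower and 0 higher (0% each) of 8387 tested. Of the 3 tested genes, 0 passed. At an unadjusted p under 0.05, toy and ey were among 211 lower probe sets (2.52%), beside 196 higher ones (2.34%). Without overlap between the groups, toy and ey were below control as 6.36% of all tested probe sets were, and 4.63% were above. The median difference of all tested probe sets was -0.02 on this scale. An exact two-sided permutation test over the arrays gave p = 0.1 for ey and for toy, the smallest p that 3 against 3 arrays allow.

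**Figure D2:**
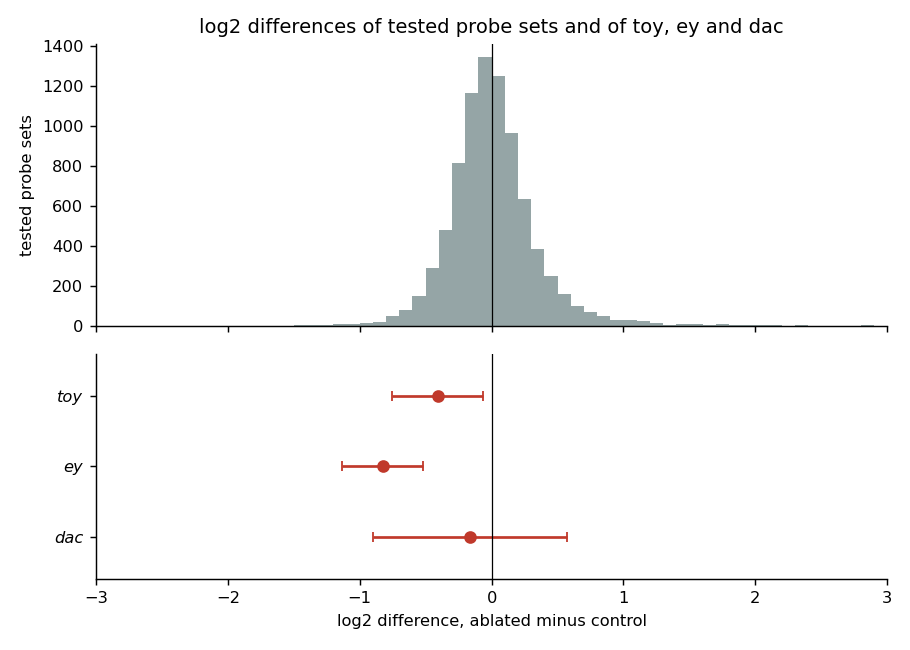
Upper panel, number of tested probe sets by log2 difference, ablated minus control (8387 probe sets). Lower panel, the differences of toy, ey and dac with 95% intervals from limma; those of toy (-0.41) and ey (-0.83) do not reach 0, and that of dac (-0.17) does.

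Because toy acts upstream of ey in the eye, the changes of these genes were set against each other within each array. The log2 ratio of ey to toy, relative to its control mean, was -0.50, -0.26 and -0.50 on ablated 4, 5 and 6 and 0.19, 0.05 and -0.24 on control 1, 2 and 3. The difference between the groups was -0.42, with ablated 5 and control 3 almost level (exact permutation p = 0.1, adjusted p = 0.667 over the 10 pairs of the 5 genes). A larger drop of ey than of toy was thus not established with 3 arrays a group. Of the 10 pairs, the lowest exact p was that of ey and toy.

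The change of ey was also compared with markers of the cells that a brain sample holds, in the same arrays. Relative to the mean of 8 pan-neuronal genes, ey stood at -0.94, -0.66 and -0.43 on ablated 4, 5 and 6 and between -0.07 and 0.11 on the control arrays. This difference of -0.68 did not overlap between groups (exact permutation p = 0.1, adjusted p = 0.3 over 9 such comparisons). Relative to the mean of 7 Kenyon cell genes that encode no transcription factor, the difference of ey was -0.44, again without overlap (exact permutation p = 0.1). For toy the difference was -0.26 against the pan-neuronal genes (exact permutation p = 0.3) and -0.02 against the Kenyon cell genes (exact permutation p = 0.7). With overlapping groups, a shift of toy apart from those genes was not detectable on these arrays. The mean of the 7 Kenyon cell genes was pulled down by prt (-1.26) and mub (-0.72), whereas their median difference was -0.14. The closeness of toy to that mean thus rests largely on these genes. Against 12 photoreceptor genes the difference of ey was -1.02 and that of toy -0.60 (exact permutation p = 0.1 and p = 0.4). Neuronal markers were present on every array, with elav (154632_at), an RNA-binding protein gene of all neurons, at 98.1, 68.4 and 85.2 on ablated 4, 5 and 6 and 107, 94.2 and 107 on control 1, 2 and 3. Of the 8 pan-neuronal genes 6 lay below 0, against 52.7% of all tested probe sets, with a median of -0.09 that ranged from -0.21 (without ablated 4) to -0.08 (without ablated 5). In this list 1 gene had no overlap between groups, against 6.36% of all tested probe sets. This was Csp (141486_at), a chaperone gene of synaptic vesicles, at 319, 304 and 240 on ablated 4, 5 and 6 and 354, 349 and 433 on control 1, 2 and 3. Its difference of -0.40 (SE 0.15, adjusted p = 0.838 in limma) was about that of toy. The RNA-binding protein genes Rbp9 (152149_at) and elav differed by -0.58 (SE 0.31) and -0.30 (SE 0.17), with overlapping groups.

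Of 8 glial genes 4 lay below 0, with a median of -0.02 and a range from -0.11 (without ablated 6) to 0.10 (without ablated 4). The smallest p among them belonged to moody, a receptor gene of the blood-brain barrier, at 0.48, nrv2, a sodium pump subunit gene, at -0.38, and loco, a regulator of G protein signalling, at 0.22. None of these 8 was free of overlap on its brightest tested probe set. A second tested loco probe set (150386_at) differed by -0.34 (SE 0.18), below control without overlap, as 6.36% of all tested probe sets were.

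The gene dac, also active in Kenyon cells, in lamina neurons and in insulin-producing cells, had a signal of 12.1, 32.0 and 26.8 on ablated 4, 5 and 6 and 25.0, 31.3 and 20.2 on control 1, 2 and 3 (143574_at). Ablated 5 read the highest of all 6 arrays and ablated 4 the lowest, so the groups overlapped in full. The means were 23.7 ± 10.3 (SD, n = 3) in ablated and 25.5 ± 5.55 (SD, n = 3) in control brains. The log2 difference of -0.17 (SE 0.32) had a 95% interval of -0.90 to 0.57 and an adjusted p of 0.934 in limma. A drop as large as that of ey lies within this interval, as does a rise. An exact permutation test gave p = 0.9. Without ablated 4 the difference was 0.20.

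The gene eya (152004_at), a coactivator with phosphatase activity, read 4.33, 10.04 and 10.6 on ablated 4, 5 and 6 and 10.1, 10.5 and 7.15 on control 1, 2 and 3. The means were 8.32 ± 3.47 (SD, n = 3) in ablated and 9.25 ± 1.84 (SD, n = 3) in control brains, a log2 difference of -0.16. Apart from ablated 4, the ablated arrays lay within or just above the control range, and without that array the difference was 0.13.

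The gene so (152642_at), the DNA-binding partner of eya, read 3.69, 8.69 and 9.99 on ablated 4, 5 and 6 and 10.4, 9.26 and 8.89 on control 1, 2 and 3. The means were 7.46 ± 3.32 (SD, n = 3) in ablated and 9.52 ± 0.806 (SD, n = 3) in control brains, a log2 difference of -0.33. Ablated 6 exceeded 2 of the 3 control arrays, and without ablated 4 the difference was -0.02. Exact permutation tests gave p = 0.8 for eya and p = 0.4 for so. With the filter on dim probe sets removed, the 95% intervals in limma were -0.97 to 0.65 for eya and -1.12 to 0.47 for so, wide enough to hold the difference of ey.

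The low reading of ablated 4 was common to dac, eya and so and absent from ey, whose lowest array, ablated 5, lay only 0.03 below the next on the log2 scale. For dac, eya and so the gap between ablated 4 and the next array was 0.63, 0.49 and 0.83. Over all tested probe sets, ablated 4 was the lowest array for 15.9%, and by a gap of at least 0.5 for 1.47%, a gap chosen after the values were seen. The dimmer probe sets of eya and so are not among those tested, so these shares give no like background for them. The gap of eya also fell short of 0.5. On this array the mean of 8 optic lobe transcription factor genes was also low, at -0.50 from the control mean, against -0.08 and -0.22 on ablated 5 and 6 and -0.24 to 0.13 on the control arrays. The 8 pan-neuronal genes stood at 0.10 on ablated 4 and the 12 photoreceptor genes at 0.51. The part of these lists in the low readings was not tested. Of the optic lobe genes, 6 of 8 lay below 0, against 52.7% of all tested probe sets, with a median of -0.14 that ranged from -0.38 (without control 2) to -0.01 (without ablated 6). Only 1 of the 8 was free of overlap, against 6.36% of all, the LIM-homeodomain gene Lim1 (144141_at), at -1.15 (SE 0.36). The homeobox gene otp differed by -0.60 (SE 0.44) and the POU factor gene acj6 by -0.28 (SE 0.30).

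**Figure D3:**
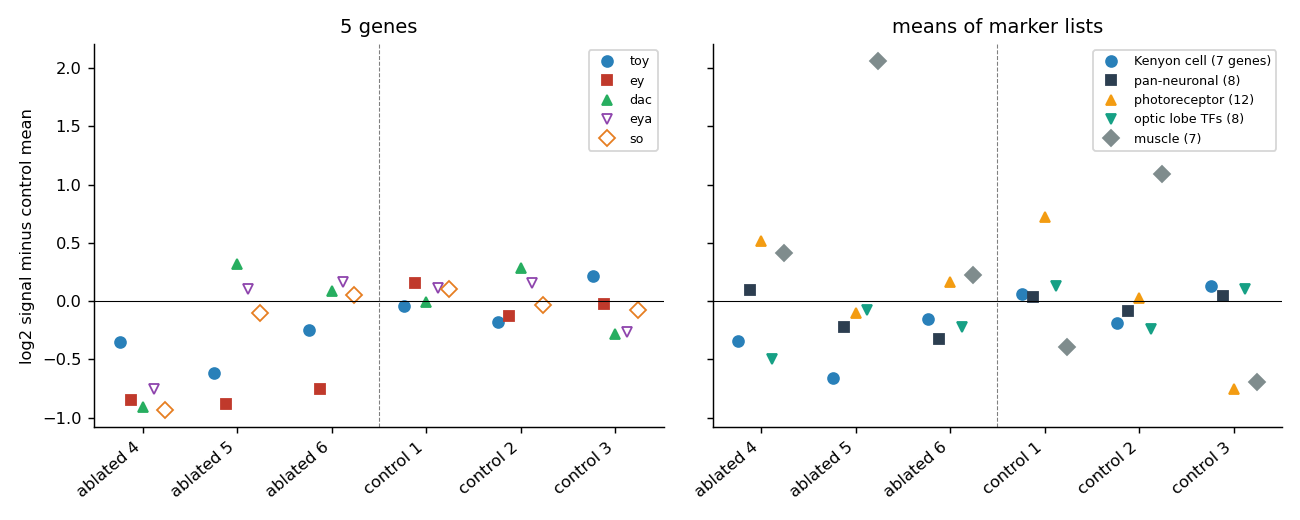
Log2 signal minus the control mean on each array, for the 5 genes (left) and for the mean of each marker list (right). Open symbols mark eya and so, which lay below the level for testing. Numbers in brackets are tested genes, and TFs are transcription factors. On the ablated arrays ey stays near -0.8, while dac, eya and so are lowest on ablated 4, and the muscle mean is highest on ablated 5 at 2.06.

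Retina and other tissue carried along with a brain would add signal of the same genes, since so, eya and dac are active in the eye. Of 22 photoreceptor genes listed, 12 had a tested probe set. Their summed signal ranged from 700.2 to 1692 on the ablated arrays and from 377 to 1845 on the control arrays. The arrestin gene Arr2 (143078_at) read 878, 272 and 553 on ablated 4, 5 and 6 and 928, 399 and 43.6 on control 1, 2 and 3. The scaffold gene inaD and the kinase gene inaC differed by 0.39 (SE 0.39) and 0.63 (SE 0.66). Photoreceptor transcripts thus varied more within the control group than between the groups. The array with the most, control 1, and the array with the least, control 3, had signals of 229 and 203 for ey, both above every ablated array. Whether carried-along retina bears on the values of the 5 genes was not tested.

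Muscle genes and most odorant-binding genes listed, which are known from tissue outside the brain, had their highest list means on ablated 5. The 7 muscle genes stood at 0.41, 2.06 and 0.22 on ablated 4, 5 and 6 and at -0.40, 1.09 and -0.69 on control 1, 2 and 3. The muscle genes with the smallest p were Mlc2, Mlc1 and up, at 1.33, 1.36 and 1.15. The 8 odorant-binding genes stood at 0.31, 3.50 and 1.20 on the ablated arrays and between -0.07 and 0.07 on the control arrays. Of them, Obp56d read 81.2, 316 and 42.0 on ablated 4, 5 and 6 and 16.5, 25.4 and 29.7 on control 1, 2 and 3, with Obp19d at a difference of 2.13. Os-C read 267 on ablated 5, 16.4 on ablated 6 and at most 1.11 on the other arrays. The list was not uniform, since Obp44a read 2007, 1587 and 2036 on ablated 4, 5 and 6 and 1867, 2349 and 2028 on control 1, 2 and 3, and Obp99b averaged 23.4 in ablated and 22.8 in control brains. Of 7 fat body genes, 7 lay above 0, with a median of 0.27 that ranged from 0.11 (without control 3) to 0.44 (without control 1). Among them the yolk protein genes Yp3 and Yp2 differed by 0.23 and 0.32 and the transferrin gene Tsf1 by 0.24. The signal of ey differed little among the ablated arrays, and its difference was -0.80 without ablated 5. For toy, ablated 5 was the lowest array, and its difference without ablated 5 was -0.30. Whether carried-along tissue of these kinds bears on the values of the 5 genes was not tested.

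The close relatives of the 5 genes were mostly too dim to test. Of 10 other genes of the Pax family and of the family of so, 9 had a probe set of their own and 2 were tested. The gene Optix (144053_at), a regulator of eye and brain regions, measured 20.9 ± 5.10 (SD, n = 3) in ablated and 18.7 ± 8.77 (SD, n = 3) in control brains. The Pax gene Poxn (143309_at), needed for taste bristles and a set of brain neurons, measured 12.7 ± 2.22 (SD, n = 3) and 10.7 ± 3.48 (SD, n = 3). Their differences of 0.23 and 0.22 lay above 0, and 0 of 2 passed or were free of overlap.

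Partners and signals of the network, such as the nuclear factors dan and danr and the receptor gene Egfr, gave 4 tested genes, with 1 below 0, 3 above and a median of 0.01, which ranged from -0.08 (without control 3) to 0.12 (without control 2). Egfr differed by 0.17 (SE 0.26) and danr by 0.03 (SE 0.25). None of these 4 passed limma's adjusted test, and none at an unadjusted p under 0.05. The dan probe set (154929_at) read 1.27 on ablated 4, 12.5 on ablated 5 and 11.5 on ablated 6, against 16.5, 12.4 and 8.68 on control 1, 2 and 3. Its lowest array was ablated 4, as for dac, eya and so. Genes that act later in eye neurogenesis, split evenly, with 4 of 8 below 0 and a median of 0.04, which ranged from -0.04 (without control 2) to 0.13 (without control 1). The repressor gene emc differed by -0.18 (SE 0.14), the homeobox gene ro by 0.41 (SE 0.32) and the bHLH gene da by 0.22 (SE 0.18).

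Transcription factors of the mushroom body other than the 5 genes gave 7 tested members, with 4 below 0 and 0 without overlap. Their median was -0.07 and ranged from -0.23 (without ablated 4) to 0.11 (without control 3). The nuclear receptor gene ftz-f1 (154699_at) had the smallest p of these, at 23.8 ± 5.47 (SD, n = 3) in ablated and 34.2 ± 7.95 (SD, n = 3) in control brains. Its difference was -0.48 (SE 0.23, adjusted p = 0.838 in limma). The gene br (143087_at), a zinc finger factor of metamorphosis, differed by 0.68 (SE 0.36) and Eip93F (143728_at), a factor that acts late in neuroblasts, by -0.28 (SE 0.27). The homeobox gene Rx, which acts in mushroom body neuroblasts, stood at 0.35.

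Taken by the brightest tested probe set of each, Kenyon cell genes that encode no transcription factor lay below 0 in 7 of 7 cases. This compares with 52.7% of all tested probe sets, and 2 of 7 were below control without overlap, against 6.36%. Their median of -0.14 depended on single arrays. It was -0.04 without control 3, -0.10 without ablated 5 and -0.17 without control 1, and -0.33 without control 2, -0.32 without ablated 6 and -0.22 without ablated 4. These 2 were prt (143798_at), which encodes a vesicular transporter, with a difference of -1.26 (SE 0.35), and the phosphodiesterase gene dnc (152476_at), with -0.32 (SE 0.16). The gene mub (154611_at), an RNA-binding protein of the mushroom bodies, differed by -0.72 (SE 0.28) with overlapping groups. Adjusted p was 0.838 for all 3 in limma, so the list had 0 of 7 called, as did all probe sets. Further tested probe sets of the listed genes went both ways. For dnc they differed by 0.38 (144435_at, SE 0.43) and -0.03 (143128_at). For rut the brightest (151241_f_at) differed by -0.04 and the other (143329_at) by -0.62 (SE 0.29). The listed gene scb (143334_at) was too dim to test, with a difference of 0.39.

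In insulin-producing cells of the brain, dac and ey are known to act together on an insulin-like peptide gene, Ilp5. No probe set of Ilp5 with a single gene was analysed here. Ilp2 (152379_at), made in the same cells, measured 801 ± 97.4 (SD, n = 3) in ablated and 828 ± 113 (SD, n = 3) in control brains. Its difference was -0.05 (SE 0.14), with an adjusted p of 0.958 in limma.

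The genes ey and toy also share a chromosome, the small chromosome 4, where 10 protein-coding genes lie between them in the RefSeq table of Release 6. Of the 41 other tested genes of that chromosome, 32 had a difference below 0, against 52.7% of all tested probe sets. Their median was -0.17, and 7 were below control without overlap, against 6.36% of all tested probe sets. No gene passed limma's adjusted test. At an unadjusted p under 0.05 in limma, 3 of 41 were lower and 0 higher, against 2.52% and 2.34% of all tested probe sets. The 3 lower genes were 4E-T (153607_at) at -0.65, Sox102F (153871_at) at -0.86 and Rad23 (153683_at) at -0.34. Much of the median of the 41 genes came from ablated 5, where their mean was -0.38. It was -0.11 and -0.06 on ablated 4 and 6 and -0.04 to 0.02 on the control arrays. Without ablated 5 the median was -0.06 and 29 of 41 lay below 0, against 50.8% of all tested probe sets. Genes measured on the same arrays are not independent replicates, so these counts are a description.

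**Figure D4:**
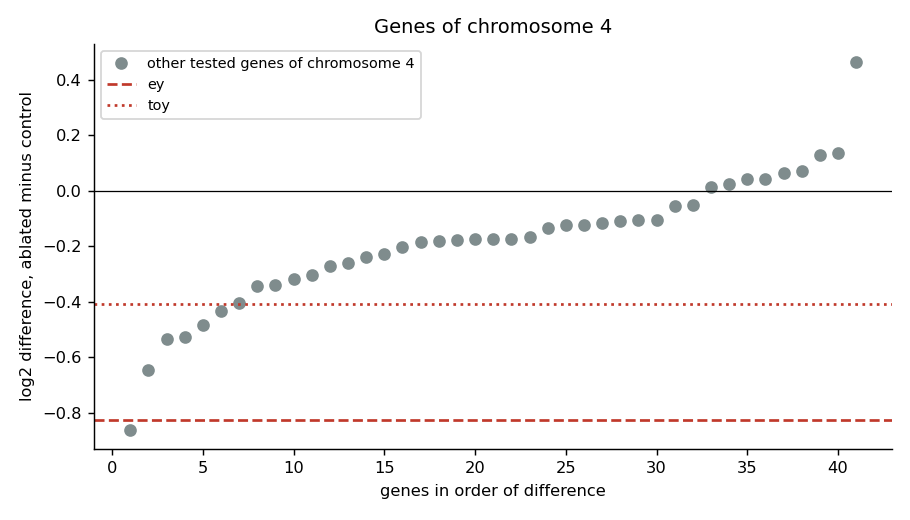
Log2 difference, ablated minus control, of the 41 other tested genes of chromosome 4 in order of size, with the differences of ey (dashed, -0.83) and toy (dotted, -0.41). Of the 41 genes 32 lie below 0, and Sox102F alone lies below ey, with an ablated mean of 7.70, below the level for testing.

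The nearest tested neighbours of ey and toy on this chromosome were chosen after the values were seen. The adjacent gene myo (154466_at), which encodes a growth factor of the TGF-beta family, differed by 0.07 and MED26 (153799_at), a Mediator subunit, by 0.02. Slip1 (153706_at) differed by -0.32 and Sox102F, an HMG-box factor, by -0.86 (SE 0.33). The signal of Sox102F was 6.44, 11.7 and 4.94 on ablated 4, 5 and 6 and 13.5, 17.3 and 16.03 on control 1, 2 and 3. Around toy, 4E-T and Mpv17 (150994_at) differed by -0.65 and -0.20, CG11076 (150993_at) by -0.11 and mGluR (143909_at), a glutamate receptor gene, by 0.13. Of these 8 neighbours 5 lay below 0, and whether position bears on the values of ey and toy was not tested.

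The probe sets most like each gene were found as those with the smallest root mean square difference between log2 profiles over the 6 arrays, each centred on its own mean. For ey these were RluA-1 (146164_at), pAbp (151215_at) and Alg12 (149581_at), at 0.11, 0.12 and 0.14. The poly(A)-binding protein gene pAbp read 419, 422 and 469 on ablated 4, 5 and 6 and 812, 562 and 690.0 on control 1, 2 and 3. For toy they were CG14464, Nop17l and CG6282, at 0.06, 0.07 and 0.07. These profiles were picked for their likeness from 7463 probe sets, so their differences between the groups follow from the choice.

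For dac, eya and so the most similar profiles repeated the low reading on ablated 4. Both dac and eya drew ppk (143914_at), a sodium channel subunit gene, and CG14340 (145557_at), with CG7381 for dac and CG14853 for eya. For so they were unc-45 (141789_at), which encodes a myosin chaperone, CG13771 and CG14492. The signal of unc-45 was 26.6, 48.5 and 51.1 on ablated 4, 5 and 6 and 49.9, 53.1 and 46.6 on control 1, 2 and 3.

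The value of dac moved most with the choice of settings, from -0.41 to 0.20. In the deposited signals, with no scaling, the differences were -0.99 for ey and -0.57 for toy, where the median of all tested probe sets was -0.17. Over 17 alternative settings the difference of ey ranged from -0.99 to -0.72 and that of toy from -0.57 to -0.30, and neither passed limma's adjusted test in any of them.

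**Figure D5:**
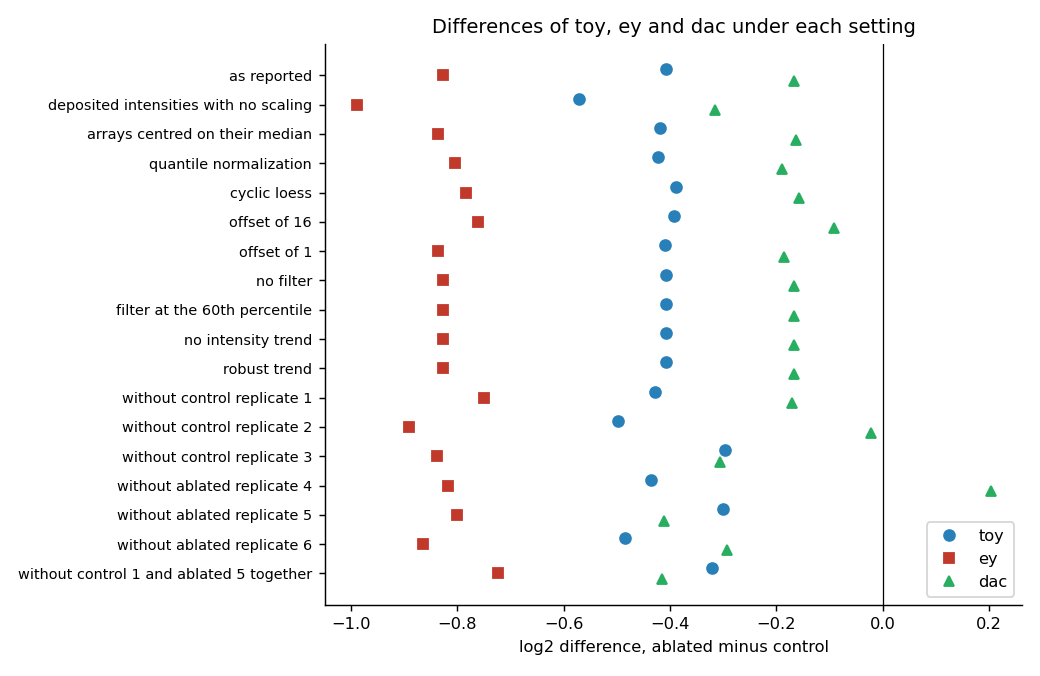
Log2 difference, ablated minus control, of toy (circles), ey (squares) and dac (triangles) under the reported setting and each of 17 alternatives. The difference of ey lies between -0.99 and -0.72 and that of toy between -0.57 and -0.30, and that of dac turns to 0.20 without ablated 4.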

How the data were processed

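Affymetrix signals of 6 brain arrays were analysed, 3 ablated and 3 control, grouped by their labels. The authors deposited 1 linear intensity per probe set and array, and MAS5 is the tool named in the submitters' processing notes. How MAS5 was set is not given in the sources used here. Trimmed means differed between arrays, so each array was scaled to a common mean after trimming 2% at each end. The 44 control probe sets were then left out. Values were taken as log2(signal + 2.71), the 20th percentile, which understates differences of dim genes. Probe sets with a mean of at least 9.19 were fitted with limma 3.58.1 in R 4.3.3 (eBayes with intensity trend, two-sided, Benjamini-Hochberg at 0.05). That mean was taken over all 6 arrays, so a probe set could reach it through 1 group alone. Exact permutation tests used all 20 assignments of arrays. Of 13966 probe sets, 12443 had a single gene, 327 several and 1196 none. In data simulated for 8387 probe sets, the test found 51.6% of 2-fold and 14.4% of 1.5-fold changes. There, 200 probe sets were changed by up to 8-fold, and the noise was normal with a spread set by signal alone. Outlying arrays were not simulated, so these shares need not hold for the real arrays. Lists were described by counts, using the brightest tested probe set of a gene. Named genes are all probe sets of the 5 genes, per list those that pass or else the 3 smallest p, and the 3 most similar profiles. Added after their values were seen were Rx, Obp44a, Obp99b, Obp28a, Obp83b, lush, Fbp1, Fbp2, rut, scb and the neighbours of ey and toy. The further probe sets of loco, dnc, Lim1 and otp were added in the same way. The 5 genes and all lists were chosen with earlier results of these data known. Alternatives covered scaling, offset, filter, variance model and arrays left out. The number of arrays limits the precision.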

Additional observations from a re-analysis of the deposited data

How the results depend on the processing

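No paired analysis was possible because the groups share no replicate number. With 1 array left out in turn, the difference of ey ranged from -0.89 to -0.75, that of toy from -0.50 to -0.30, that of dac from -0.41 to 0.20, that of eya from -0.33 to 0.13 and that of so from -0.52 to -0.02. The positive values of dac and eya arose without ablated 4. Counts called over all probe sets were 0 lower in every setting and 0 to 2 higher with 1 array left out. The 2 higher calls arose without control 1, for scaf (146651_at) and a probe set with no gene name here (152766_at), both with adjusted p = 0.0470. Their signal on control 1 was 44.4 and 188, near the ablated arrays. Apart from dac and eya without ablated 4, the direction of all 5 genes was kept in all settings. Adjusted p ranged from 0.461 to 0.997 for ey and from 0.554 to 0.997 for toy. At an unadjusted p under 0.05, 661 probe sets were lower and 53 higher in the unscaled deposited signals, where the overall signal of the ablated arrays was lower, and 176 and 222 after cyclic loess. The unadjusted p of ey was the smallest of the lower probe sets in the reported setting and stood between places 1 and 4 in the others. Of 251 list medians under alternatives, 8 moved by more than the spread between replicates.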
